A study of Mus musculus with 24 samples.

Results

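The 10 genes described here encode the machinery that loads peptides onto MHC class I molecules, with 1 gene needed for cross-presentation: H2-K1, H2-D1, B2m, Psmb8, Psmb9, Tap1, Tap2, Tapbp, Erap1 and Wdfy4. They are listed by name for their role in the pathway, and the list was drawn up with earlier results of these data known. All 10 were found among the 24421 gene symbols of the count files. All 10 also passed the low-count filter (edgeR's filterByExpr), which kept 13166 genes.

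MHC class I molecules show peptides from inside the cell to CD8 T cells. Each consists of a heavy chain (H2-K1 and H2-D1 are the classical ones of C57Bl/6 mice) held together with beta-2-microglobulin, the product of B2m. Proteasomes cut proteins into peptides, and Psmb8 and Psmb9 encode catalytic subunits of the immunoproteasome. The transporter made of TAP1 and TAP2 carries these peptides into the endoplasmic reticulum. There tapasin (Tapbp) helps to load them and the aminopeptidase ERAP1 trims them. In cross-presentation, a dendritic cell loads class I with peptides from material it has taken up, an activity for which conventional type 1 dendritic cells (cDC1) are known. In mice, WDFY4 is required in cDC1 for cross-presentation of cell-associated antigen. Conventional type 2 dendritic cells (cDC2) are better known for presenting antigen on MHC class II.

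The libraries came from cDC1 and cDC2 sorted out of the spleens of untreated C57Bl/6 mice at 6 to 12 weeks of age. In the deletion line both alleles of Zeb2, a transcriptional repressor, were floxed (Zeb2fl/fl), and in the transgene line Zeb2 was carried in the Rosa26 locus (R26-Zeb2Tg/Tg). Cre-positive mice of either line expressed Cre recombinase from CD11c sequences, so recombination is expected in any CD11c-expressing cell and not in one subset alone, and Cre-negative littermates with the same alleles were the controls. For each subset there were thus 4 groups: deletion Cre-positive (n = 4), deletion Cre-negative (n = 2), transgene Cre-positive (n = 4) and transgene Cre-negative (n = 2), 24 libraries in all. No group carried Cre without the floxed or transgene Zeb2 alleles, so carrying Cre and the change to Zeb2 cannot be told apart. The labels do not say which libraries came from separate mice, so each p-value reflects only how far these libraries scatter.

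Gene counts summed to between 21972763 and 36094786 per library, and the 10 genes took 1.07 to 1.55% of them. Zeb2 matched the labels in deletion cDC2 and transgene cDC1. It had 38.0, 41.4, 33.0 and 30.7 CPM (read counts scaled to the library total with TMM factors) in deletion Cre-positive cDC2, against 176 and 132 CPM in deletion Cre-negative cDC2. It had 44.3, 45.0, 46.3 and 41.4 CPM in transgene Cre-positive cDC1, against 3.26 and 2.36 CPM in transgene Cre-negative cDC1. Deletion Cre-positive cDC1 had 0.457 to 2.67 CPM of Zeb2 and deletion Cre-negative cDC1 0.488 and 2.56 CPM, so Zeb2 RNA gives no check of the deletion in cDC1. Marker genes matched the sorted subsets, with all 8 cDC2 markers (such as Sirpa and Clec4a4) higher, and all 8 cDC1 markers (such as Xcr1 and Clec9a) lower, when control cDC2 were set against control cDC1. Summed markers of T cells, NK cells, neutrophils and red cells stayed at or under 16.1 CPM in every library. In sorted populations measured in bulk, fewer cells of a type and less RNA per cell cannot be told apart.

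Of the 10 genes, 7 lie on mouse chromosome 17, in or near the major histocompatibility complex. In GENCODE M21 coordinates on GRCm38, the assembly of mm10, Tap1 (chr17:34187553-34197225, plus strand) and Psmb9 (chr17:34181987-34187764, minus strand) are divergent neighbours, followed by Psmb8 (chr17:34197721-34201454, plus) and Tap2 (chr17:34203527-34216321, plus). H2-K1 (chr17:33996017-34000347, minus), Tapbp (chr17:33915899-33929292, plus) and H2-D1 (chr17:35262730-35267499, plus) flank them. B2m is at chr2:122147686-122153083 on the plus strand, Erap1 at chr13:74639568-74693201 on the plus strand, and Wdfy4 at chr14:32959547-33185508 on the minus strand. The annotated exons of Tap1 and Psmb9 share 212 bases on opposite strands. Erap1 shares 834 exon bases with Cast, and Tapbp 682 with Gm19412. Tap2 shares 543 with Gm20496 and Gm15821, and Psmb8 186 with Gm20496. Strand use in counting is not given in the sources used here, so reads from such shared stretches cannot be assigned to one partner. Of all 75-base stretches in the main transcript, 1.55% in H2-K1 and 7.1% in H2-D1 also occur in other genes, mostly other heavy chains. The share was 17.5% in Tapbp, 13.6% in Erap1, 10.8% in Psmb9, 8.97% in Tap2, 4.79% in Tap1 and 3.22% in Psmb8. B2m and Wdfy4 had no such stretch.

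Promoter windows (250 bases before to 50 after the annotated start, RefSeq, GRCm38.p6) were given for 9 of the 10 genes, all but Tap2. Class I promoters are known to be driven by NF-kB, by interferon response elements and by the NLRC5 enhanceosome, and ZEB proteins bind E-boxes with the letters CACCTG. The windows were searched on both strands for the interferon-stimulated response element core (GAAA and GAAA with any 2 bases between them), the Ets-IRF composite element (GGAA and GAAA with any 2 bases between them), the CCAAT box (CCAAT), the cAMP response element half-site (TGACG), the NF-kB consensus and the ZEB E-box (CACCTG). Those shown are the Tap1 window, which is also most of the Psmb9 promoter, and the windows of the heavy chains and B2m, the genes whose subset difference did not pass the test or ran the other way. Capitals mark the matches to any of these motifs.
Tap1: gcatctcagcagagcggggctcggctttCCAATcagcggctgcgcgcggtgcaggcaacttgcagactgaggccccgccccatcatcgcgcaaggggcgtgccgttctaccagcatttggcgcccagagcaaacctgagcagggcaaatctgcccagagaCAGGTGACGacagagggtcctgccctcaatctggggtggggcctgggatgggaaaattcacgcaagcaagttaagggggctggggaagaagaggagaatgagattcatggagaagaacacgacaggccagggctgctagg
H2-K1: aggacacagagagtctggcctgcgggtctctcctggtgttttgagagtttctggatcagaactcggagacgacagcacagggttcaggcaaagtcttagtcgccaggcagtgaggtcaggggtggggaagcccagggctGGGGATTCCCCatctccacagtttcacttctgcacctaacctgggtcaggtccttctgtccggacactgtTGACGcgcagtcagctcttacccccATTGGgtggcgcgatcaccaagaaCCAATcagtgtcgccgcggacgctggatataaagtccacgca
H2-D1: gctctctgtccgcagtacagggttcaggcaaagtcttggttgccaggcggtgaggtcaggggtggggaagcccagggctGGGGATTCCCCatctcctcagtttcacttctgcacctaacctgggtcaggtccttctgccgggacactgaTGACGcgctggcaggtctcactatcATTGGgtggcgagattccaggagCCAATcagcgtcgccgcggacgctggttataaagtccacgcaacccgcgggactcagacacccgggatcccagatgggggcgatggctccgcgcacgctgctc
B2m: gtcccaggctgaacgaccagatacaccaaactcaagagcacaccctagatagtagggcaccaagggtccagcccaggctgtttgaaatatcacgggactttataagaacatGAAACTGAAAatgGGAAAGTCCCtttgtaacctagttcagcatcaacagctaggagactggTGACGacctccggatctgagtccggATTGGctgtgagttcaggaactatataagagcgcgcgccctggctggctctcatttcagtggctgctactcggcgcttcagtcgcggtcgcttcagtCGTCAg
The Tap1 window lies at chr17:34187306-34187605 on the plus strand. It shares 275 bases with the Psmb9 window on the other strand, and the RefSeq starts of these windows are 226 bases apart. The annotations differ here, since in GENCODE the exons of Tap1 and Psmb9 overlap by 212 bases. This shared promoter holds a ZEB E-box that overlaps a cAMP response element half-site (CAGGTGACG on the Tap1 strand, the E-box being read on the other strand), 90 to 85 bases before the Tap1 start. None of the other 7 windows holds a CACCTG, a motif present in 20.22% of the 32817 promoter windows in the RefSeq table. The H2-K1 window (chr17:34000298-34000597, minus strand) and the H2-D1 window (chr17:35262844-35263143, plus strand) were 89.5% identical over 239 aligned bases. Each holds an NF-kB consensus, a cAMP response element half-site and a pair of CCAAT boxes in the same order. The B2m window (chr2:122147437-122147736, plus strand) holds an interferon-stimulated response element core 139 to 130 bases before the start, an NF-kB consensus, a CCAAT box and half-sites. Erap1 carries the only other match to this core in the 9 windows, across its annotated start, and 3.431% of all windows hold one. Only exact letters were searched, so an interferon response element with other letters would be missed. The H2-K1 and H2-D1 windows are thus not shown to lack one. The Ets-IRF composite element (2.718% of all windows) was in none of the 9. A CCAAT box, in 37.39% of all windows, was the only match in Tapbp and Wdfy4. The half-site was in 20.79% and the NF-kB consensus in 8.459% of all windows, and Psmb8 had no match to any motif. The windows follow RefSeq starts, which can lie inside the GENCODE spans, so a motif at another start would be missed. The Tapbp window, for example, lies at chr17:33919228-33919527, inside the GENCODE span that begins at 33915899. These matches describe letters only, and binding was not measured.

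**Figure D1:**
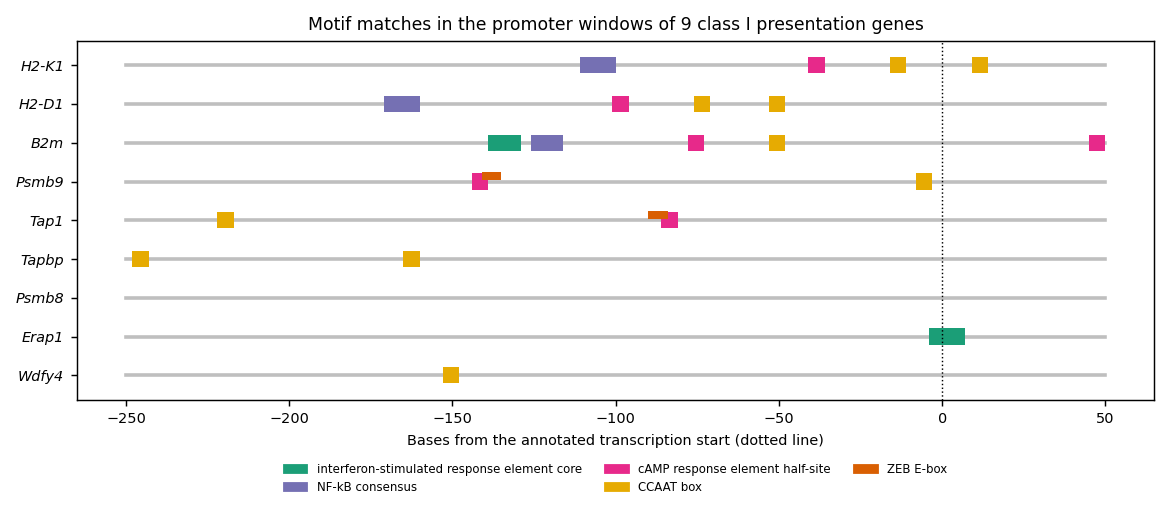
Motif matches in the promoter windows of 9 genes, 1 row a gene, with the distance in bases from the annotated start on the x axis and 1 colour a motif. The ZEB E-box appears only in the Tap1 and Psmb9 rows, which show the same stretch of DNA from either side, and H2-K1 and H2-D1 show the same order of matches.

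The first comparison asked how the subsets differ without any change to Zeb2, by setting the 4 control cDC2 libraries of both lines against the 4 control cDC1 libraries. The peptide supply genes and Wdfy4 were lower in cDC2, by 1.43 to 3.29 times for Tapbp, Tap2, Psmb8, Tap1, Psmb9 and Wdfy4. B2m was higher in cDC2 and neither heavy chain passed the test. In all, 1 of the 10 genes was called higher and 7 lower at an adjusted p under 0.05 (edgeR, quasi-likelihood, Benjamini-Hochberg over 13166 genes). Subset differences are common in these libraries: 53.4% of all tested genes were called, 27.6% higher and 25.8% lower. The median log2 fold change of the 10 genes was -0.86, and that of all genes 0.05.

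Wdfy4 had the largest difference of the 10. It had 837, 724, 667 and 801 CPM in control cDC2, against 2596, 2390, 2176 and 2801 CPM in control cDC1. The lowest cDC1 library thus had more than any cDC2 library by a wide margin, and the log2 fold change was -1.72 ± 0.11 (SE; edgeR adjusted p = 6.19e-12). RNA of this cross-presentation gene was not restricted to cDC1: control cDC2 still averaged 757 ± 76.6 CPM (SD, n = 4), against 2491 ± 268 CPM in control cDC1 (SD, n = 4).

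Both immunoproteasome subunits were lower in control cDC2. Psmb9 had 230, 253, 247 and 245 CPM in control cDC2, against 639, 722, 733 and 815 CPM in control cDC1, a log2 fold change of -1.57 ± 0.08 (SE; edgeR adjusted p = 3.05e-13). Psmb8 averaged 564 ± 29.6 CPM in control cDC2 and 1320 ± 147 CPM in control cDC1 (SD, n = 4 each; log2 fold change -1.22 ± 0.07 SE, edgeR adjusted p = 2.8e-12). For either gene the 4 cDC2 libraries lay close together and below all 4 cDC1 libraries. The 95% interval of the log2 fold change was -1.75 to -1.40 for Psmb9 and -1.38 to -1.07 for Psmb8, and the difference between these genes was not tested.

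The peptide transporter had the same direction. Tap1 had 335, 353, 344 and 360 CPM in control cDC2, against 775, 934, 922 and 985 CPM in control cDC1 (log2 fold change -1.38 ± 0.09 SE, edgeR adjusted p = 1.01e-11). Its partner Tap2 averaged 201 ± 29.0 CPM in control cDC2 and 463 ± 57.2 CPM in control cDC1 (SD, n = 4 each; log2 fold change -1.21 ± 0.12 SE, edgeR adjusted p = 1.73e-08). Neither gene's groups overlapped. Tapbp, which bridges the transporter and the heavy chain, differed less, at 931 ± 82.3 CPM in control cDC2 and 1328 ± 122 CPM in control cDC1 (SD, n = 4 each; log2 fold change -0.52 ± 0.09 SE, edgeR adjusted p = 2.3e-05).

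Erap1 was at the edge of the test. It had 146, 181, 168 and 156 CPM in control cDC2, against 192, 205, 189 and 183 CPM in control cDC1 (log2 fold change -0.24 ± 0.08 SE, edgeR adjusted p = 0.0165). The groups did not overlap, but the call ended without deletion Cre-negative cDC1 replicate 2 (adjusted p = 0.0574), without transgene Cre-negative cDC2 replicate 2 (0.0555) or without deletion Cre-negative cDC2 replicate 1 (0.101). It also ended with scaling by library totals alone (-0.10, adjusted p = 0.334), a scaling that moved the median of all genes by 0.14.

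The genes of the class I molecule itself gave other values than its supply genes. H2-K1 had 2294, 2156, 1987 and 1942 CPM in control cDC2, against 1480, 1905, 1724 and 2109 CPM in control cDC1, and these ranges overlap (log2 fold change 0.22 ± 0.12 SE, edgeR adjusted p = 0.148). With scaling by library totals alone it was called higher in cDC2 (0.36, adjusted p = 0.00722). H2-D1 averaged 1501 ± 31.0 CPM in control cDC2 and 1611 ± 110 CPM in control cDC1 (SD, n = 4 each), a log2 fold change of -0.10 with a 95% interval of -0.30 to 0.10 (edgeR adjusted p = 0.404). The light chain gene B2m was higher, with 3196, 4301, 5091 and 4193 CPM in control cDC2 against 3090, 2868, 2838 and 2753 CPM in control cDC1. All 4 cDC2 values exceeded all 4 cDC1 values, the lowest by little (log2 fold change 0.53 ± 0.10 SE, edgeR adjusted p = 7.91e-05). H2-K1 and H2-D1 held 82.3 to 87.6% of the counts of 31 class I heavy-chain genes in each library. The summed counts of all 31 gave a log2 fold change of 0.07 ± 0.10 (SE; edgeR adjusted p = 0.571).

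**Figure D2:**
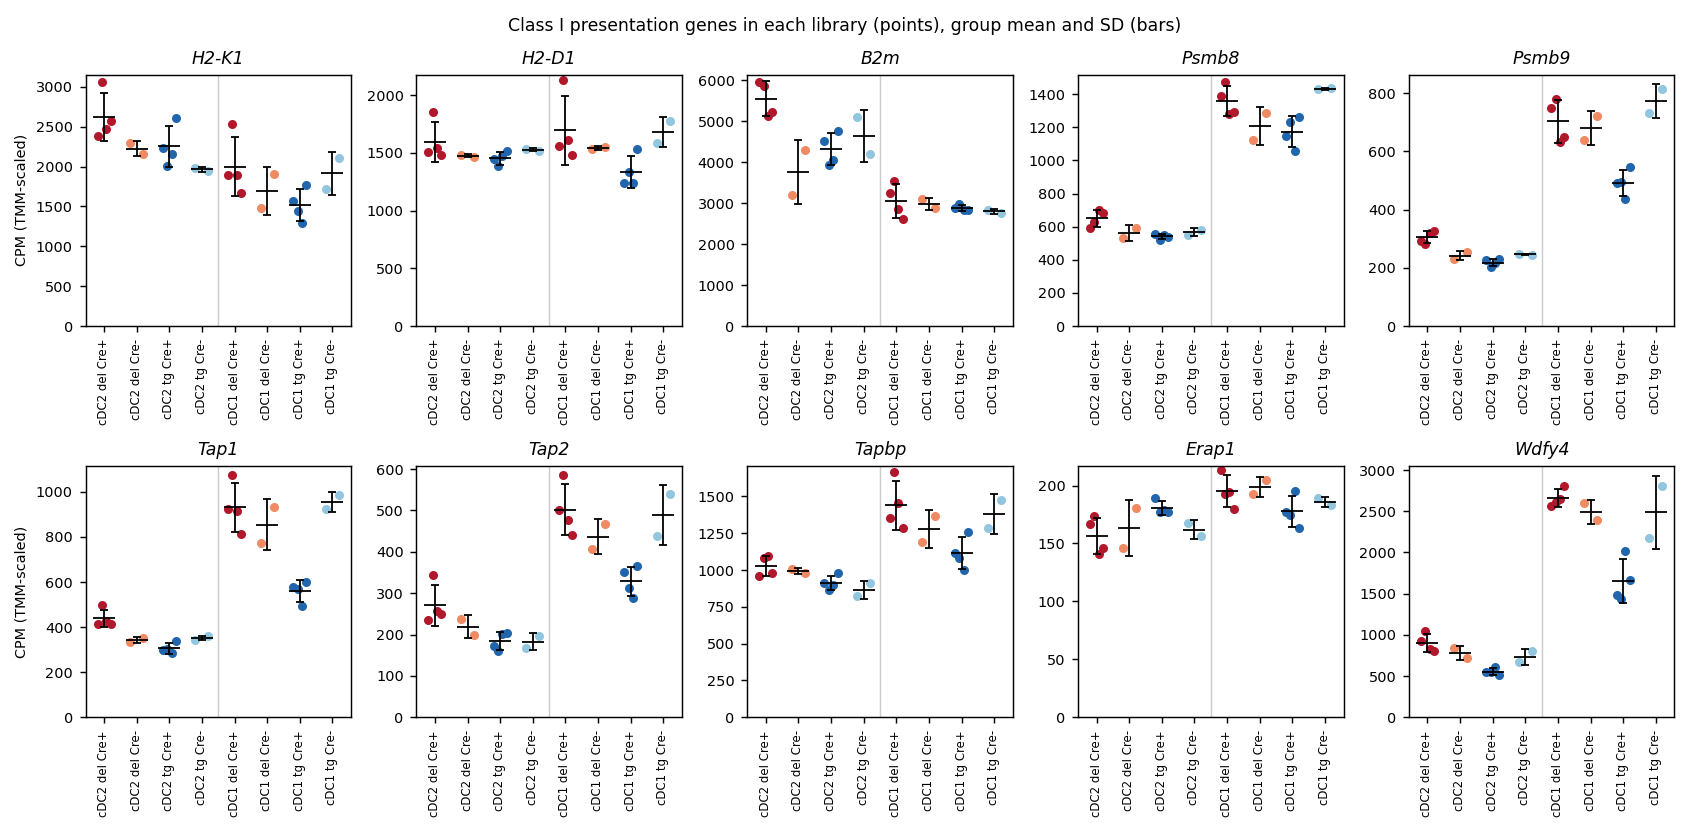
TMM-scaled CPM of each gene (y axis, from 0) in each of the 24 libraries (points) in 8 groups (x axis; del is the deletion line and tg the transgene line), with the group mean and SD as bars. Wdfy4, Tap1, Tap2, Psmb8 and Psmb9 have a higher mean in each cDC1 group than in any cDC2 group, B2m has a lower one, and the ranges of H2-K1 and of H2-D1 over the 12 libraries of each subset overlap.

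The balance of the heavy chains separated the subsets where neither gene did so alone. Counts of H2-K1 divided by counts of H2-D1 ran from 1.28 to 1.74 in the 12 cDC2 libraries and from 0.967 to 1.26 in the 12 cDC1 libraries, with no overlap. The ratio was 1.64 ± 0.0701 in deletion Cre-positive cDC2 (SD, n = 4), against 1.51 ± 0.0530 in deletion Cre-negative cDC2 (SD, n = 2). It was 1.55 ± 0.124 in transgene Cre-positive cDC2 (SD, n = 4), against 1.29 ± 0.0111 in transgene Cre-negative cDC2 (SD, n = 2). In cDC1 the group means of this ratio lay between 1.10 and 1.18. The ratio was looked at after its parts had been seen and is given with no test, and both numbers carry the few stretches that the genes share with other heavy chains.

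Levels can be compared between genes only per length, here as CPM per kilobase of merged exons. B2m was highest in each of the 8 groups, with 5398 ± 738.5 per kilobase in transgene Cre-negative cDC2 and 3251 ± 69.7 per kilobase in transgene Cre-negative cDC1 (SD, n = 2 each). H2-K1 came next everywhere, from 918 to 1584 per kilobase over the group means. In cDC2 the third place was held by H2-D1, and in cDC1 by Psmb8 just above H2-D1, although the Psmb8 and H2-D1 ranges overlapped in 3 of the 4 cDC1 groups. Tapbp and Psmb9 changed places between groups. Below them came Tap1, Wdfy4 and Tap2, and Erap1 was lowest in each group at 27.8 to 35.2 per kilobase. In cDC2 the levels of Wdfy4 and Tap2 per kilobase overlapped in both Cre-positive groups, so their order there is within the spread.

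The wider pathway was read from lists of other class I genes. Over all tested genes, 27.6% were called higher and 25.8% lower in control cDC2. Genes of peptide loading and folding showed the subset difference most uniformly: 10 of 11 were called lower in control cDC2 and none higher (median log2 fold change -0.59). Pdia3, which encodes the thiol oxidoreductase of the loading complex, averaged 432 ± 42.3 CPM in control cDC2 and 1267 ± 128 CPM in control cDC1 (SD, n = 4 each; log2 fold change -1.55, edgeR adjusted p = 4.88e-12). Calr, the chaperone calreticulin, and Hspa5, the chaperone BiP, had log2 fold changes of -1.15 and -0.94 (edgeR adjusted p = 4.5e-11 and 6.51e-11). Bcap31 was the member not called.

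Among 12 other proteasome genes, 7 were called lower in control cDC2 and 1 higher (median log2 fold change -0.52). Lower were Pomp, the proteasome assembly factor (-1.33, edgeR adjusted p = 1.24e-12), and Psme1, a subunit of the PA28 activator (-1.19, 9.76e-12). So was Psmb7, the constitutive subunit that the inducible Psmb10 replaces (-1.11, 1.07e-10). The gene called higher was Psme2b (1.47, edgeR adjusted p = 3.46e-04), whose counts depend on how reads shared with Psme2 were assigned. The third inducible subunit, Psmb10, was not among those called, with 163, 148, 129 and 126 CPM in control cDC2 against 132, 159, 183 and 171 CPM in control cDC1.

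Of 7 peptide-trimming genes tested, 3 were called lower in control cDC2, led by the aminopeptidase gene Lap3 (-1.41, edgeR adjusted p = 2.35e-11), and 1 higher, the endosomal aminopeptidase gene Lnpep (0.72, edgeR adjusted p = 2.25e-05). In the list of class I-like genes and other heavy chains, 12 of 22 found passed the low-count filter, and 3 were called higher and 3 lower. These class I-like counts are near the shares over all tested genes, 27.6% higher and 25.8% lower. Cd1d1, which presents lipids, was lower (-1.99, edgeR adjusted p = 9.96e-13), and H2-M2 was higher (3.45, edgeR adjusted p = 1.18e-08), at 75.2 ± 16.1 CPM in control cDC2 and 6.96 ± 1.56 CPM in control cDC1 (SD, n = 4 each).

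Of 28 genes of uptake and transport for cross-presentation, 6 were called higher and 12 lower in control cDC2. Over all tested genes these shares were 27.6% higher and 25.8% lower. Clec9a, the receptor for dead-cell actin that also marks cDC1, was far lower (-4.79, edgeR adjusted p = 7.03e-15), as were Ly75, which encodes the uptake receptor DEC-205 (-3.37, 1.87e-13), and Rab11a, a recycling endosome GTPase (-1.31, 1.49e-12). Cybb, the NADPH oxidase subunit gp91phox, was 590 ± 43.3 CPM in control cDC2 and 2.84 ± 1.16 CPM in control cDC1 (SD, n = 4 each; log2 fold change 7.75, edgeR adjusted p = 7.12e-13). Syk, a kinase downstream of Clec9a, was also higher (1.68, edgeR adjusted p = 3.45e-12), and so was Ifi30, the lysosomal thiol reductase (1.24, edgeR adjusted p = 1.36e-09).

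Of 18 regulators of class I transcription, 8 were called higher and 4 lower, beside 27.6% and 25.8% of all tested genes. Nlrc5, the transactivator of class I genes, averaged 39.4 ± 3.40 CPM in control cDC2 and 74.4 ± 7.23 CPM in control cDC1 (SD, n = 4 each; log2 fold change -0.92, edgeR adjusted p = 2.06e-05). Irf8, a factor that defines cDC1, was lower (-5.42, edgeR adjusted p = 6.83e-17), and Nfkb1 was higher (2.66, edgeR adjusted p = 2.25e-15). Interferon-stimulated genes lay on the other side. In control cDC2, 17 of 22 were called higher and 2 lower (median log2 fold change 1.80), led by Ddx58 (6.20, edgeR adjusted p = 1.63e-13), a cytosolic RNA sensor, with Mx1 and Irf7 as those lower.

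**Figure D3:**
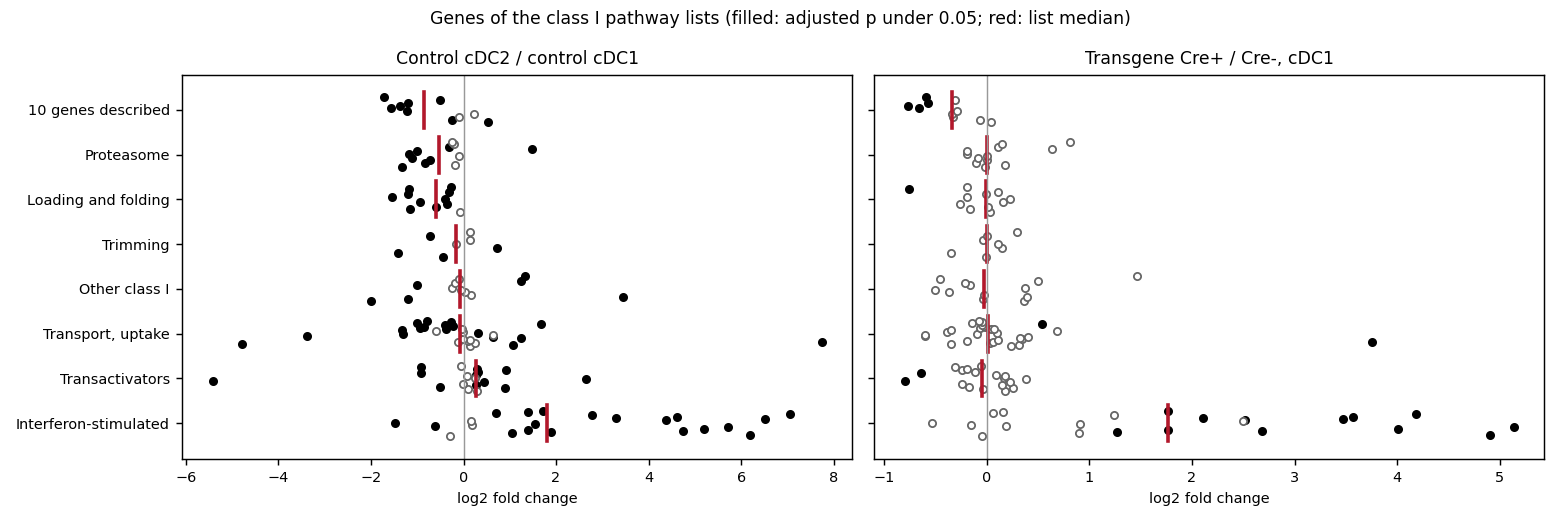
Log2 fold change (x axis) of each tested gene in the 10 genes described and 7 lists (rows), for control cDC2 over control cDC1 (left) and transgene Cre-positive over Cre-negative cDC1 (right), with filled points for adjusted p under 0.05 and the list median as a bar. Loading genes lie left of 0 in the subset panel, and interferon-stimulated genes lie mostly right of 0 in both panels while the 10 genes lie mostly left.

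The transgene comparison set Cre-positive against Cre-negative cDC1, a subset with little Zeb2 otherwise. Tap1, Psmb9, Wdfy4 and Tap2 were lower in transgene Cre-positive cDC1 than in Cre-negative cDC1, by 1.49 to 1.70 times. In all, 4 of the 10 genes were called lower and none higher, where 3.42% of all tested genes were called lower and 3.58% higher. The median log2 fold change of the 10 was -0.33, against 0.02 over all genes, and 9 of the 10 values were negative.

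Tap1 had 580, 568, 492 and 600 CPM in transgene Cre-positive cDC1, against 922 and 985 CPM in transgene Cre-negative cDC1 (log2 fold change -0.77 ± 0.11 SE, edgeR adjusted p = 4.16e-05). Psmb9, across the shared promoter, had 490, 494, 435 and 545 CPM in transgene Cre-positive cDC1, against 733 and 815 CPM in transgene Cre-negative cDC1 (-0.66 ± 0.10 SE, edgeR adjusted p = 1.19e-04). Every Cre-positive library was below both controls for either gene, and also below the 2 controls of the deletion line. Both calls held without any 1 library. Of the 4 Cre-positive cDC1 libraries, 3 had more Tap1 than any of the 12 cDC2 libraries, whose highest value was 496 CPM, and the lowest had 492 CPM.

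Wdfy4 had 1478, 1430, 2018 and 1670 CPM in transgene Cre-positive cDC1, against 2176 and 2801 CPM in transgene Cre-negative cDC1 (-0.59 ± 0.13 SE, edgeR adjusted p = 0.00467). Tap2 had 351, 312, 289 and 365 CPM in transgene Cre-positive cDC1, against 439 and 541 CPM in transgene Cre-negative cDC1 (-0.57 ± 0.15 SE, edgeR adjusted p = 0.0171). No groups overlapped for these genes, but transgene Cre-negative cDC1 replicate 2 was the high control of both. Without it neither was called (Wdfy4 -0.40, adjusted p = 0.197; Tap2 -0.41, adjusted p = 0.295), while 2 of the 10 genes were called, and 476 of all genes. Of all genes, 922 were called with all libraries and 584 without transgene Cre-negative cDC1 replicate 1. Without Cre-positive replicates 1 and 2 together, the adjusted p was 0.0813 for Wdfy4 and 0.0712 for Tap2, and without replicates 3 and 4 together it was 0.0505 for Tap2.

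The remaining genes did not pass the test in transgene Cre-positive cDC1. Psmb8, the partner of Psmb9 in the immunoproteasome, had 1145, 1234, 1056 and 1264 CPM in transgene Cre-positive cDC1, against 1430 and 1437 CPM in transgene Cre-negative cDC1 (-0.29 ± 0.09 SE, edgeR adjusted p = 0.0548). Tapbp had a log2 fold change of -0.31 (adjusted p = 0.0785), H2-D1 of -0.33 (adjusted p = 0.0977) and H2-K1 of -0.34 (adjusted p = 0.202). Psmb8, Tapbp and H2-D1 were called when transgene Cre-positive replicate 4 was left out (adjusted p = 0.0344, 0.0279 and 0.0367), and 7 of the 10 genes were called then. Of all genes, 476 to 983 were called in this comparison over the settings that left libraries out. DESeq2 called Psmb8 (adjusted p = 0.0261) and Tapbp (0.0496), the filter of at least 5 CPM in 4 libraries called Psmb8 (0.0453), and Tapbp was called against the pooled controls of both lines (0.0499). Erap1 (-0.07, 95% interval -0.27 to 0.14) and B2m (0.04, 95% interval -0.21 to 0.29) had the values nearest to 0. B2m had 2872, 2981, 2834 and 2834 CPM in transgene Cre-positive cDC1, against 2838 and 2753 CPM in transgene Cre-negative cDC1.

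**Figure D4:**
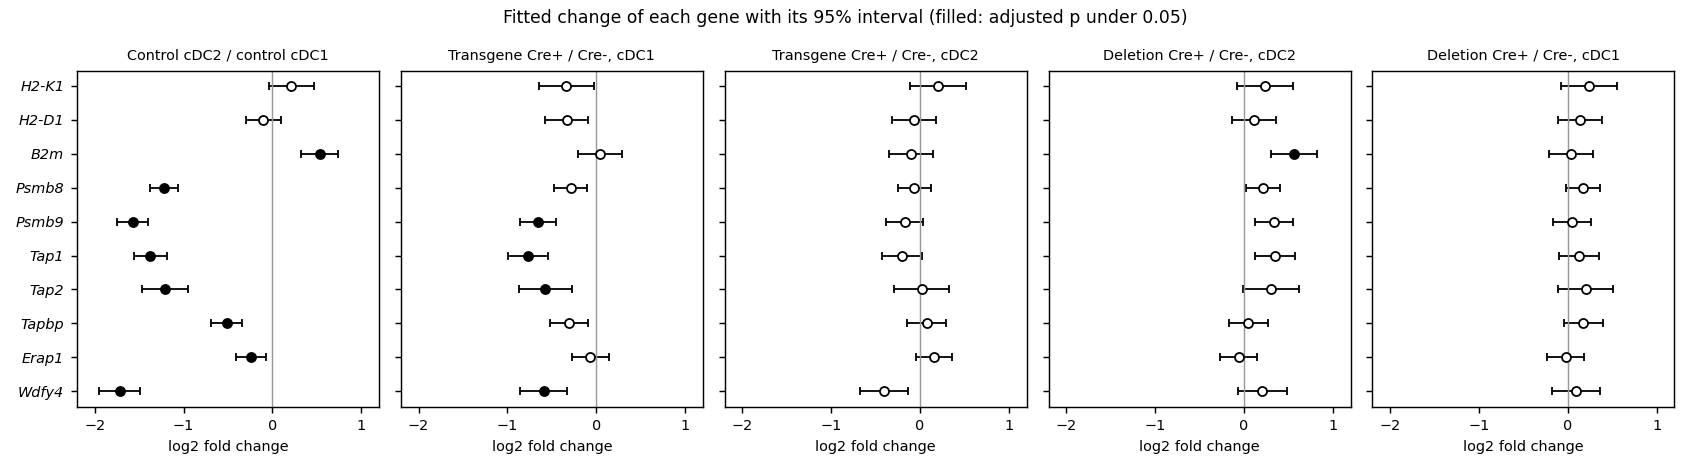
Fitted log2 fold change (x axis) with its 95% interval for each of the 10 genes (rows) in 5 comparisons (panels), with filled points for adjusted p under 0.05. Filled points lie left of 0 for 7 genes in the control subsets and for Psmb9, Tap1, Tap2 and Wdfy4 in transgene cDC1, and B2m is the only filled point in deletion cDC2.

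In the rest of the pathway in transgene Cre-positive cDC1, none of 12 proteasome genes, 7 trimming genes or 12 class I-like genes passed the test. Over all tested genes, 3.42% were called lower and 3.58% higher there. Of 11 loading genes 1 was called lower, Tapbpl, which encodes the peptide editor TAPBPR, at 67.6 ± 4.38 CPM in transgene Cre-positive cDC1 (SD, n = 4) and 114 ± 5.47 CPM in transgene Cre-negative cDC1 (SD, n = 2; log2 fold change -0.76, edgeR adjusted p = 0.00588). Of 18 transcription regulators 2 were called lower and none higher. Nlrc5 had 52.3, 46.5, 41.0 and 42.7 CPM in transgene Cre-positive cDC1, against 64.5 and 78.0 CPM in transgene Cre-negative cDC1 (-0.64 ± 0.18 SE, edgeR adjusted p = 0.0312). Irf8 had 2064, 2157, 2450 and 2829 CPM in transgene Cre-positive cDC1, against 3682 and 4574 CPM in transgene Cre-negative cDC1 (-0.80 ± 0.18 SE, edgeR adjusted p = 0.00537). In the transport list Cybb (3.76, edgeR adjusted p = 3.57e-05) and Syk (0.54, edgeR adjusted p = 0.00988) were called higher.

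Interferon-stimulated genes moved the other way from Tap1 and Psmb9. In transgene Cre-positive cDC1, 12 of 22 were called higher and none lower (median log2 fold change 1.77), with Ddx58 at 17.4 ± 7.69 CPM in Cre-positive (SD, n = 4) and 0.581 ± 0.0832 CPM in Cre-negative libraries (SD, n = 2; edgeR adjusted p = 2.7e-07). The mean log2 CPM of the 22 genes was 4.09, 4.15, 3.31 and 3.40 in transgene Cre-positive cDC1, against 2.09 and 1.82 in transgene Cre-negative cDC1. All 12 cDC2 libraries lay higher still, between 4.33 and 5.04. Irf1, which acts upstream of class I genes in the interferon response, was not among the genes called.

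**Figure D5:**
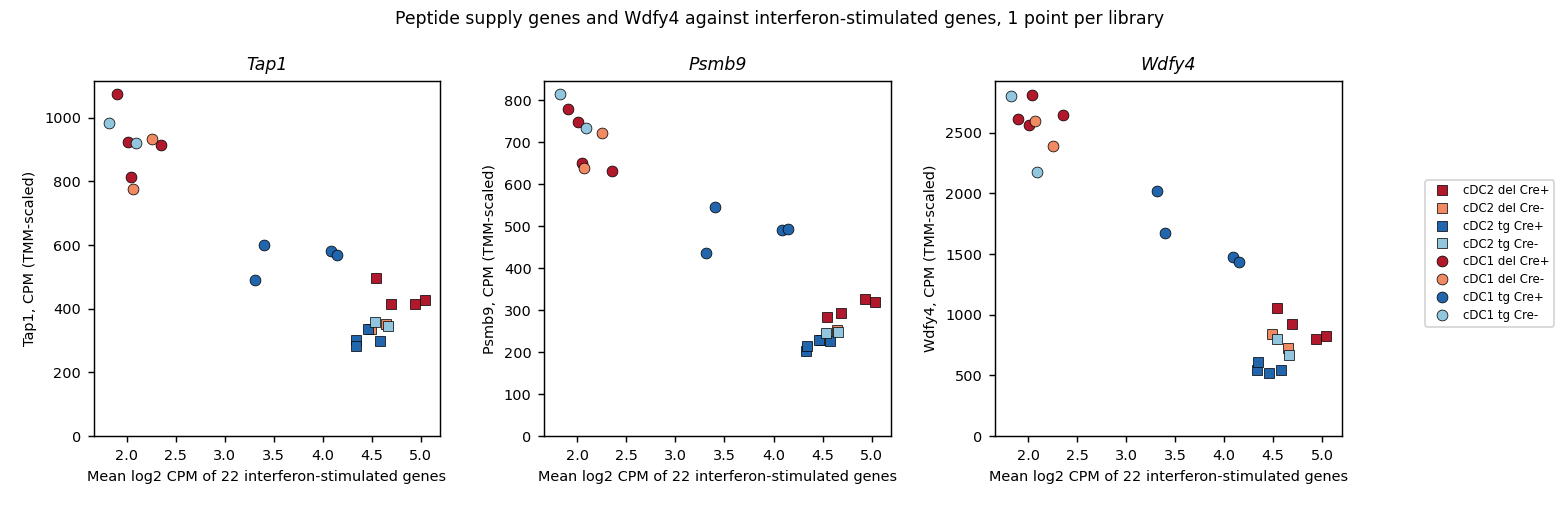
CPM of Tap1, Psmb9 and Wdfy4 (y axes, from 0) against the mean log2 CPM of 22 interferon-stimulated genes (x axis), 1 point a library, circles for cDC1 and squares for cDC2, with del for the deletion line and tg for the transgene line. The 4 transgene Cre-positive cDC1 libraries lie between the other cDC1 libraries (left, high) and the cDC2 libraries (right, low), except that 1 of them, at 492 CPM of Tap1, is below the highest cDC2 library at 496 CPM.

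Markers of the subsets and of other cells moved with these values. The summed CPM of 8 cDC1 markers was 4091 to 5514 in transgene Cre-positive cDC1, against 6858 to 8349 in transgene Cre-negative cDC1, and 4 of the 8 were called lower. The summed CPM of 8 cDC2 markers was 124 to 324 in transgene Cre-positive cDC1, against 39.7 to 40.3 in transgene Cre-negative cDC1, and 7 of the 8 were called higher. That is well below the 2590 to 2628 CPM of transgene Cre-negative cDC2, and none of the 8 was at 0 throughout. Of 4 red pulp macrophage markers 2 were called higher (Adgre1 and Spic), with a sum of 111 to 210 CPM in transgene Cre-positive cDC1, against 81.4 to 109 CPM in transgene Cre-negative cDC1. Of 4 monocyte markers 1 was called higher (Csf1r), with a sum of 447 to 538 CPM in transgene Cre-positive cDC1, against 233 to 457 CPM in transgene Cre-negative cDC1. Called lower were 1 of 5 plasmacytoid dendritic cell markers (Ccr9; sum 67.1 to 82.0 CPM in transgene Cre-positive cDC1, against 99.7 to 105 CPM in transgene Cre-negative cDC1) and 1 of 3 B cell markers tested (Ms4a1; sum 8.06 to 20.0 CPM in transgene Cre-positive cDC1, against 28.9 to 46.3 CPM in transgene Cre-negative cDC1). Of 3 NK cell markers tested Prf1 was called lower, with a sum of 0 to 0.435 CPM in transgene Cre-positive cDC1, against 0.0492 to 2.05 CPM in transgene Cre-negative cDC1. Of these lists only the NK cell marker Klra8 was at 0 in each library of both groups. The part of these shifts in the values of the 10 genes was not tested.

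The deletion comparison in cDC2 set Cre-positive against Cre-negative libraries of the subset that expresses Zeb2. B2m was higher in deletion Cre-positive cDC2, and it was the only one of the 10 genes called, where 5.21% of all tested genes were called, 2.33% higher and 2.88% lower. It had 5951, 5866, 5128 and 5232 CPM in deletion Cre-positive cDC2, against 3196 and 4301 CPM in deletion Cre-negative cDC2 (log2 fold change 0.56 ± 0.12 SE, edgeR adjusted p = 0.00754). The 4 Cre-positive libraries were all above the 2 controls, and also above the 2 controls of the transgene line at 5091 and 4193 CPM, the nearer by little. The call was lost without the low control, deletion Cre-negative cDC2 replicate 1 (log2 fold change 0.36, adjusted p = 0.314). Of all genes, 142 were called without that library, 349 without deletion Cre-negative cDC2 replicate 2 and 686 with all libraries.

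Peptide supply genes had positive values in deletion Cre-positive cDC2 that missed the threshold. Psmb9 had 293, 283, 320 and 327 CPM in deletion Cre-positive cDC2, against 230 and 253 CPM in deletion Cre-negative cDC2 (0.34 ± 0.10 SE, edgeR adjusted p = 0.0549). Tap1 had 414, 496, 428 and 416 CPM in deletion Cre-positive cDC2, against 335 and 353 CPM in deletion Cre-negative cDC2 (0.35 ± 0.11 SE, edgeR adjusted p = 0.0722). For these genes no Cre-positive library overlapped the controls of either line. DESeq2 called both (adjusted p = 0.0247 for Psmb9 and 0.0381 for Tap1). The other 7 had log2 fold changes of -0.06 to 0.31 and adjusted p of 0.213 to 0.869. Wdfy4 was among them, with 924, 1053, 828 and 799 CPM in deletion Cre-positive cDC2 against 837 and 724 CPM in deletion Cre-negative cDC2 (0.21, 95% interval -0.07 to 0.48).

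Elsewhere in the pathway of deletion cDC2, where 5.21% of all tested genes were called, 1 gene a list was called at most. These were Clec9a (-2.45, edgeR adjusted p = 1.16e-06), Nfkb1 (-0.52, 0.0127), the dipeptidase gene Pepd (-0.40, 0.047) and the interferon-stimulated Oasl2 (1.27, 0.019), with none among the loading, proteasome or class I-like genes. Markers of the subsets and of other cells moved beside B2m. Of 8 cDC1 markers 1 was called higher and 2 lower. Their sum was 146 to 175 CPM in deletion Cre-positive cDC2, against 189 to 216 CPM in deletion Cre-negative cDC2. Of 5 plasmacytoid dendritic cell markers 1 was called higher. The sum of these 5 was 103 to 113 CPM in deletion Cre-positive cDC2, against 98.7 to 106 CPM in deletion Cre-negative cDC2. Summed CPM of 4 monocyte markers was 978 to 1219 in deletion Cre-positive cDC2, against 2821 to 3532 in deletion Cre-negative cDC2. Lyz2, Ccr2 and Csf1r were called lower, while Ly6c2 had a positive log2 fold change (1.32) and was not called. Summed B cell markers were 169 to 216 CPM in deletion Cre-positive cDC2, against 16.5 to 30.8 CPM in deletion Cre-negative cDC2, which came from Ms4a1 (3.43, edgeR adjusted p = 6.34e-04), while the other B cell markers tested were not called. The part of these marker shifts in the B2m value was not tested.

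The remaining Cre comparisons called none of the 10 genes. In transgene cDC2, where 0.327% of all tested genes were called, Wdfy4 had the smallest p of the 10. It had 546, 548, 607 and 518 CPM in transgene Cre-positive cDC2, against 667 and 801 CPM in transgene Cre-negative cDC2 (-0.40 ± 0.13 SE, 95% interval -0.67 to -0.13, edgeR adjusted p = 0.259). These 4 libraries were the lowest for Wdfy4 of all 24. Tap1 had a log2 fold change of -0.20 (95% interval -0.43 to 0.02) and Psmb9 of -0.17 (95% interval -0.38 to 0.04), and the others lay between -0.11 and 0.20. Zeb2 itself had 151, 152, 148 and 159 CPM in transgene Cre-positive cDC2, against 104 and 104 CPM in transgene Cre-negative cDC2. These Cre-positive values lay between those of the deletion Cre-negative cDC2 libraries, at 176 and 132 CPM.

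In deletion cDC1, where 0.0228% of all tested genes were called, the log2 fold changes of the 10 lay between -0.03 and 0.24, and the adjusted p was 0.996 or more for each. The 95% intervals bound a change in either direction: for Tap1 they ran from -0.10 to 0.35, for Psmb9 from -0.16 to 0.26 and for Wdfy4 from -0.18 to 0.37. Wdfy4 had 2565, 2611, 2650 and 2810 CPM in deletion Cre-positive cDC1, against 2596 and 2390 CPM in deletion Cre-negative cDC1.

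Whether the Cre effect differed between subsets was tested directly, as the effect in cDC2 minus that in cDC1. None of the 10 genes was called in either line, where 2.01% of all tested genes were called in the transgene line and 1.08% in the deletion line. In the transgene line Tap1 came nearest (0.57, 95% interval 0.25 to 0.89, edgeR adjusted p = 0.0589), followed by Psmb9 (0.48, 0.18 to 0.78, adjusted p = 0.09) and Tap2 (0.59, 0.15 to 1.03, adjusted p = 0.19). For Wdfy4 the difference was 0.19 (-0.19 to 0.58, adjusted p = 0.734). DESeq2 called Tap1 (adjusted p = 0.0178) and Psmb9 (0.0359), and so did edgeR without transgene Cre-positive cDC1 replicate 4 (0.0445 and 0.0455). In the deletion line B2m had a difference of 0.53 (0.18 to 0.88, adjusted p = 0.147), called without deletion Cre-negative cDC2 replicate 2 (0.75, adjusted p = 0.0452). Among the pathway genes of the transgene line, Irf8 (1.50, edgeR adjusted p = 0.00145), Clec9a (1.38, 0.0238) and Ly75 (1.12, 0.0375) were called with a higher value in cDC2. Called with a lower one were Cybb (-3.76, edgeR adjusted p = 9.53e-04), the type I interferon receptor gene Ifnar2 (-0.62, 0.0312) and 10 of 22 interferon-stimulated genes.

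The subset difference was then read among Cre-positive libraries. In the deletion line 2 of the 10 genes were called higher in Cre-positive cDC2 than in Cre-positive cDC1 and 7 lower, where 56.1% of all tested genes were called, 29.0% higher and 27.1% lower. B2m (0.86 ± 0.10 SE, edgeR adjusted p = 1.07e-07) and H2-K1 (0.39 ± 0.12 SE, edgeR adjusted p = 0.00936) were higher. Wdfy4 (-1.56), Psmb9 (-1.20), Tap1 (-1.09), Psmb8 (-1.06), Tap2 (-0.89), Tapbp (-0.48) and Erap1 (-0.32) were lower, with adjusted p from 3.15e-11 to 0.00212. H2-D1 was not called (-0.09, adjusted p = 0.465).

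In the transgene line 2 of the 10 were called higher in Cre-positive cDC2 than in Cre-positive cDC1 and 6 lower, where 52.9% of all tested genes were called, 26.8% higher and 26.0% lower. H2-K1 had 2238, 2010, 2160 and 2611 CPM in transgene Cre-positive cDC2, against 1570, 1440, 1292 and 1775 CPM in transgene Cre-positive cDC1, with no overlap (0.57 ± 0.12 SE, edgeR adjusted p = 4.6e-04). B2m was higher too (0.58 ± 0.10 SE, edgeR adjusted p = 2.8e-05). Wdfy4 (-1.57), Psmb9 (-1.17), Psmb8 (-1.12), Tap1 (-0.87), Tap2 (-0.83) and Tapbp (-0.29) were lower, with adjusted p from 2.21e-11 to 0.0076. Erap1 (0.02, adjusted p = 0.833) and H2-D1 (0.12, adjusted p = 0.313) were not called, although H2-D1 was with scaling by library totals alone (0.21, adjusted p = 0.0415). The controls are on neither side of these comparisons. B2m, Wdfy4, Psmb9, Psmb8, Tap1, Tap2 and Tapbp were thus called in 3 comparisons that set different libraries against each other, and H2-K1 in 2 of them. The p-values are not independent, since the spread was estimated over all 24 libraries together.

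The controls of the lines were compared with each other, as transgene minus deletion line. None of the 10 genes was called in cDC1 or in cDC2, where 0.129% and 0.137% of all tested genes were called, and their log2 fold changes lay between -0.09 and 0.25 in cDC1 and between -0.26 and 0.31 in cDC2. The largest was B2m in cDC2 (0.31, 95% interval 0.02 to 0.60, edgeR adjusted p = 0.514), the gene that was also called in deletion cDC2.

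The same library of a group often held the highest value of several of these genes. In deletion Cre-positive cDC1, replicate 2 was the highest of 4 for 8 of the 10 genes, all but Erap1 and Wdfy4, and replicate 2 of deletion Cre-positive cDC2 was the highest for 6 of 10. In transgene Cre-positive cDC1, replicate 4 was the highest for 7 of 10, and so was replicate 4 of transgene Cre-positive cDC2. Nlrc5 was also highest in replicate 2 of both deletion Cre-positive groups, at 76.8 CPM in cDC2 and 132 CPM in cDC1. This did not extend to transgene Cre-positive cDC1, where the highest Nlrc5 value, 52.3 CPM, was in a library other than replicate 4.

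Within a subset, log2 CPM of Tap1, Tap2, Tapbp, Psmb8, Psmb9 and Wdfy4 were positively correlated over its 12 libraries. Pearson's r of their 15 pairs ran from 0.586 to 0.927 in cDC2 and from 0.445 to 0.969 in cDC1, lowest for Psmb8 with Wdfy4 in either subset. The neighbours Tap1 and Psmb9 had an r of 0.864 in cDC2 and 0.969 in cDC1. H2-K1 and H2-D1 had 0.695 and 0.910, and B2m had 0.257 to 0.708 with the 6 genes in cDC2 and 0.0830 to 0.352 in cDC1. Outside the 10 genes, those most like Wdfy4 over the 24 libraries, among 13156 genes, were Acox3, Notch4 and Sept6. Within cDC2 their r with Wdfy4 was 0.948, 0.893 and 0.809, and within cDC1 0.934, 0.946 and 0.967. Those most like Tap1 were Serpinb6b, Notch4 and Atmin, with 0.819, 0.767 and 0.737 within cDC2 and 0.975, 0.912 and 0.961 within cDC1. The 12 libraries of a subset share line and Cre status in groups, so these values are a description with no p.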

How the data were processed

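RNA of 24 libraries was amplified from 4 ng with the SMART-Seq v4 kit in 15 PCR cycles and sequenced as single 75-base reads, per the labels' protocols. The submitters' processing notes name FastQC 0.11.4, Trimmomatic 0.35, TopHat2 2.1.0, SAMtools 0.1.18 and the mm10 build. For the counting program, its annotation and its strand setting, nothing is given in the sources used here. The values analysed are the raw read counts per gene symbol that the authors deposited, 1 file a library. The closing lines that name no gene were left out (reads without a feature, 10.43 to 15.68% of all reads listed, and ambiguous reads, 0.9702 to 1.086%). Amplified reads carry no molecular identifiers, so the spread between libraries, not the read number, sets the precision.

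From these counts, 13166 of 24421 genes passed filterByExpr (minimum count 10, minimum total 15). Counts were scaled with TMM factors (0.9245 to 1.074). Comparisons used edgeR 4.0.16 (R 4.3.3, limma 3.58.1) with quasi-likelihood tests on the means of 8 groups over all 24 libraries, and Benjamini-Hochberg adjustment over all genes at 0.05. Standard errors were taken from the fold change and its F statistic, and the tests were tried on simulated counts. Correlations were taken on log2 CPM (prior count 2). Alternatives were DESeq2 1.42.0, other scalings, no filter or at least 5 CPM in 4 libraries, the compared libraries alone, pooled controls, a replicate block and leaving out each library. Leaving out pairs of transgene Cre-positive cDC1 libraries was added after seeing the data.

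The 10 genes and the gene lists were chosen with earlier results of these data known. Of each list, up to 3 called genes in each direction with the smallest p were named, with Zeb2, marker genes that moved beside a result, and the 3 genes most correlated with Wdfy4 and with Tap1. Psmb10, Bcap31, Irf1 and, between control subsets, Nlrc5 were named for their roles after their values were seen. Promoter sequences came from RefSeq (GRCm38.p6) and positions from GENCODE M21. Libraries of a group differed by more than sampling noise (chi-square per gene 10.11 to 51.1 over 28 pairs). Same-numbered cDC2 and cDC1 libraries deviated together in the Cre-positive groups of both lines. Across genes, r was 0.101 to 0.111 in the 4 transgene pairs and 0.0764 to 0.170 in the 4 deletion pairs. The numbers were read as pairs there, from the data and not from the labels, and the main tests did not use them.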

Additional observations from a re-analysis of the deposited data

Results flagged for a closer look

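In each of 40 groups of 4 libraries (10 genes in 4 Cre-positive groups), the gap of the highest or lowest library to its nearest neighbour was set against the group's range. That share was above 0.829 in 2 of them, and chance alone passes it in about 5% of groups. Both lay in deletion Cre-positive cDC2 replicate 2. H2-D1 had 1850 CPM there, against 1480 to 1541 CPM in the other 3 libraries of the group (share 0.835). Tap1 had 496 CPM there, against 414 to 428 CPM in the other 3 (share 0.832).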

How the results depend on the processing

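No value of the 10 genes that was called changed sign under any alternative. Of 1846 values of single genes under the alternatives, 1811 kept their side of the threshold, 25 passed it newly and 10 lost it. The controls, with 2 libraries a group, set the precision. The cause of the shifts below was not tested.

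Without a low-count filter, 71 genes were called in transgene cDC2 (43 with it) and 30 between the cDC2 controls of the lines (18 with it). With at least 5 CPM in 4 libraries, 2 of the 10 genes, B2m and Psmb9, were called in deletion cDC2 (1 otherwise). DESeq2 called 3 of the 10 in deletion cDC2 and 2 in the transgene subset interaction (0 by edgeR), and 7 of all genes in deletion cDC1 (3 by edgeR), 119 in transgene cDC2, 336 and 475 in the deletion and transgene interactions (142 and 264 by edgeR), and 53 and 70 between the cDC1 and cDC2 controls (17 and 18 by edgeR). With the compared libraries alone, 1 gene was called in deletion cDC1, 550 in transgene cDC1 (922 otherwise), 6 between cDC1 controls and 85 between cDC2 controls. With the controls of both lines pooled, 1063 genes were called in deletion cDC2 (686 otherwise) and 4 of the 10 (B2m, Tap1, Tap2 and Psmb9), 19 in deletion cDC1, 86 in transgene cDC2 and 1961 in transgene cDC1.

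With the replicate number as a block, 2 of the 10 genes were called in deletion cDC2 (Tap1 at 0.42, edgeR adjusted p = 0.00605) and 1 in the transgene interaction (Tap1 at 0.57, edgeR adjusted p = 0.00905). The block also called H2-D1 (-0.38, edgeR adjusted p = 0.0277) and Tapbp (-0.34, edgeR adjusted p = 0.0329) in transgene cDC1 and H2-K1 between control subsets (0.22, edgeR adjusted p = 0.0343). Of all genes it called 69 in transgene cDC2, 400 in the transgene interaction and 32 between cDC2 controls. In the Cre-positive subset comparisons of both lines, where the numbers were read as pairs, the block changed no call of the 10. There r of deviations was 0.0764 to 0.170 in deletion and 0.101 to 0.111 in transgene pairs. All 4 Cre-positive cDC2 libraries of each line correlated best with the cDC1 library of their own number. Elsewhere libraries may share only a number, with r of 0.0352 in transgene and -0.00779 in deletion Cre-negative pairs.

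Leaving out 1 library at a time, and for transgene Cre-positive cDC1 also 2, gave 6341 to 6532 genes (7 to 8 of the 10) between control subsets, 6899 to 7104 (9 of 10) between deletion and 5964 to 6725 (8 of 10) between transgene Cre-positive subsets, 476 to 983 (2 to 7) in transgene cDC1, 142 to 673 (0 to 1) in deletion cDC2, 18 to 45 in transgene cDC2, 1 to 4 in deletion cDC1, 8 to 12 between cDC1 and 9 to 12 between cDC2 controls. The deletion interaction had 21 to 161 (0 to 1): 51 and 61 without deletion Cre-negative cDC1 replicates 1 and 2, 90 without Cre-positive cDC1 replicate 1 and 21 without Cre-negative cDC2 replicate 1. The transgene interaction had 138 to 417 (0 to 2): 140 without transgene Cre-negative cDC1 replicate 2, 138 and 173 without Cre-negative cDC2 replicates 1 and 2, and 335 without Cre-positive cDC1 replicate 4. Without either of these cDC2 controls, 21 and 18 genes were called in transgene cDC2. In deletion cDC1, 1 gene was called without Cre-negative replicate 2 and 2 without Cre-positive replicate 4. Without transgene Cre-positive cDC1 replicates 1 and 2 together, 2 of the 10 were called in transgene cDC1, and without replicates 3 and 4 together 417 genes in the interaction.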
